A study of Homo sapiens with 3 samples.

Results

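The clusters described here are the transcript clusters of an Affymetrix Human Gene 1.0 ST array for which the deposited annotation gives no transcript description. A transcript cluster is the unit of this array, a set of probes summarised into 1 value. All clusters whose description field held only a dash entry were taken, which made 4952 of the 33297 clusters, or 14.9%. The rule itself uses no measured value. They were compared with the 20086 other clusters that carried exactly 1 gene symbol. The RNA came from LNCaP cells, a human prostate cancer line that responds to androgen. There was 1 array of control cells, 1 of cells given 70 µg/ml n-butylidenephthalide for 3 h, and 1 of cells given the same dose for 24 h. The compound, called BP here, is a phthalide found in the root of Angelica sinensis. The label of the control array states neither a vehicle nor a harvest time, although the series title names DMSO, so BP, vehicle and time in culture cannot be told apart here. With 1 array per condition no statistical test could be made and no p-value is printed. Precision is limited throughout by the number of arrays.

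Probes on this type of array are spread along the exons of a transcript, and most clusters stand for a known or predicted gene. The design of such arrays also holds control probe sets, among them spiked-in transcripts, probes that match no human sequence, and exons and introns of genes that most cells transcribe. Exon probes of an active gene read mature RNA, while intron probes read unspliced precursor RNA and background. The deposited annotation does not mark any cluster as a control, so which of the clusters described here belong to such sets is not stated in the sources used here, and none is given a role below.

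The values are log2 values as deposited, and differences between arrays of 1 or more on this scale, a 2-fold change, were counted as higher or lower. The control, 3 h and 24 h arrays had medians of 5.48, 5.46 and 5.48, and their 75th percentiles were 7.11, 7.19 and 7.13. Of 7 genes fixed as markers of LNCaP cells, 6 had a cluster with 1 symbol. Their control values lay between 8.31 and 10.4, and all 6 lay above the median over all clusters. Of 5 markers of other prostate cancer lines, CD44 and CAV1 had control values of 3.98 and 4.06, and the other 3, VIM, LCN2 and GSTP1, had 6.00, 5.89 and 5.69, above the median over all clusters.

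The cluster numbers divided the undescribed clusters into 3 sets. A first run of 4201 clusters, 84.8% of them, filled the numbers 7892501 to 7896730 with no described cluster in between, and 29 numbers of this span were not in use. A last run of 227 clusters filled the numbers 8180192 to 8180418, the highest of the array. The remaining 524 clusters were scattered among the described ones, 494 of them alone and 30 in 15 adjacent pairs. The annotation was nearly empty for all of them. A transcript class was given for 10, all of class est and all scattered, and a symbol or accession was given for 7, also scattered.

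The first run spanned a wider range of levels than the named genes. In control cells its 5th percentile was 1.45, its median 5.16 and its 95th percentile 11.3, against 2.98, 6.04 and 9.12 over the clusters with 1 symbol. Its range was wider at both ends. Of the 1665 brightest clusters, the top bin when all clusters were divided into 20 bins by the mean of the 3 arrays, 753 belonged to the first run and 667 had 1 symbol. Of the 1677 dimmest, 313 belonged to the first run and 88 had 1 symbol. The last run was brighter in the middle, with a control median of 6.68 and a 95th percentile of 11.1, and 68.3% of its clusters lay above the median level of all clusters. The scattered clusters were dim. Their control median was 3.10, close to the 3.42 of the 6355 clusters that had a description but no symbol, and 13.5% and 15.7% of these groups lay above the median level.

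**Figure D1:**
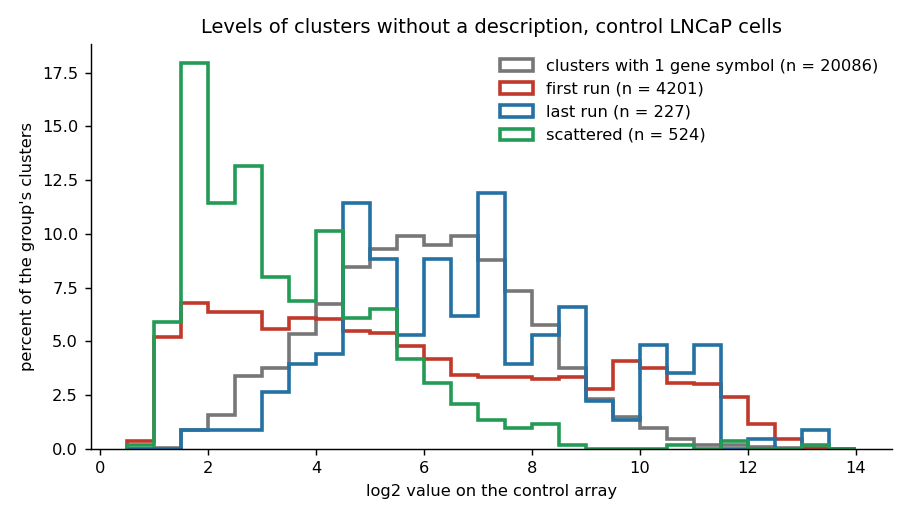
Percent of the clusters of each group (y axis) at each log2 value of the control array (x axis, steps of 0.5), for clusters with 1 gene symbol and the 3 sets of clusters without a description. The first run spreads from the dimmest to the brightest values with no peak in the middle, the last run follows the named genes with more bright clusters, and the scattered clusters pile up at the dim end around their median of 3.10.

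The brightest undescribed clusters hardly differed between the arrays. Cluster 7896397 of the first run had log2 values of 13.29, 13.37 and 13.30 on the control, 3 h and 24 h arrays, with differences of 0.08 and 0.01 from control cells. Cluster 8180192 of the last run had 13.32, 13.32 and 13.32, with differences of 0.01 and 0.00. These were the undescribed clusters with the highest mean level. Of the 791 undescribed clusters in the brightest of the 20 bins, 14 (1.77%) were at least 2-fold lower at 24 h than in control cells. In that bin 0 undescribed clusters were higher, and of the 667 with 1 symbol 3.90% were lower and 2.25% higher. The highest control value of a cluster with 1 symbol was 12.7.

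After 3 h of BP the undescribed clusters differed from control cells far more often than the named genes did. Of the 4952 clusters, 424 were past 2-fold upward and 79 downward, or 8.56% and 1.60%. Over all clusters on the array 1.6% were higher and 0.336% lower, and over clusters with 1 symbol 0.368% and 0.0498%. The undescribed clusters made up 79.5% of the 533 clusters that were higher at this time and 70.5% of the 112 that were lower. Without them, 109 clusters were higher and 33 lower. Of the 20 largest increases on the array at 3 h, 18 were in the first run and 2 were in clusters with 1 symbol, and of the 100 largest, 87 and 13.

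These differences lay in the first run. It held 423 of the 424 higher and 77 of the 79 lower clusters, so that 10.1% of its clusters were higher and 1.83% lower. The median difference of the first run was 0.16 on the log2 scale, with the middle 95% of its clusters between -0.89 and 1.77, whereas the median over clusters with 1 symbol was 0.00 with the middle 95% between -0.35 and 0.49. The difference was above 0 for 2748 clusters of the run (65.4%) and below 0 for 1308 (31.1%). None of the 227 clusters of the last run was past 2-fold at 3 h, and their differences lay between -0.63 and 0.72. Among the 524 scattered clusters 1 was higher and 2 were lower. The 75th percentile over all clusters was also highest on the 3 h array, as given above. With each array centred on this percentile, 374 undescribed clusters were higher and 99 lower at 3 h, and the median difference over all of them was 0.02 in place of 0.10. Quantile normalization gave 395 and 86 with a median of 0.04, and centring on the array medians, which goes the other way, gave 431 and 76 with a median of 0.11.

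**Figure D2:**
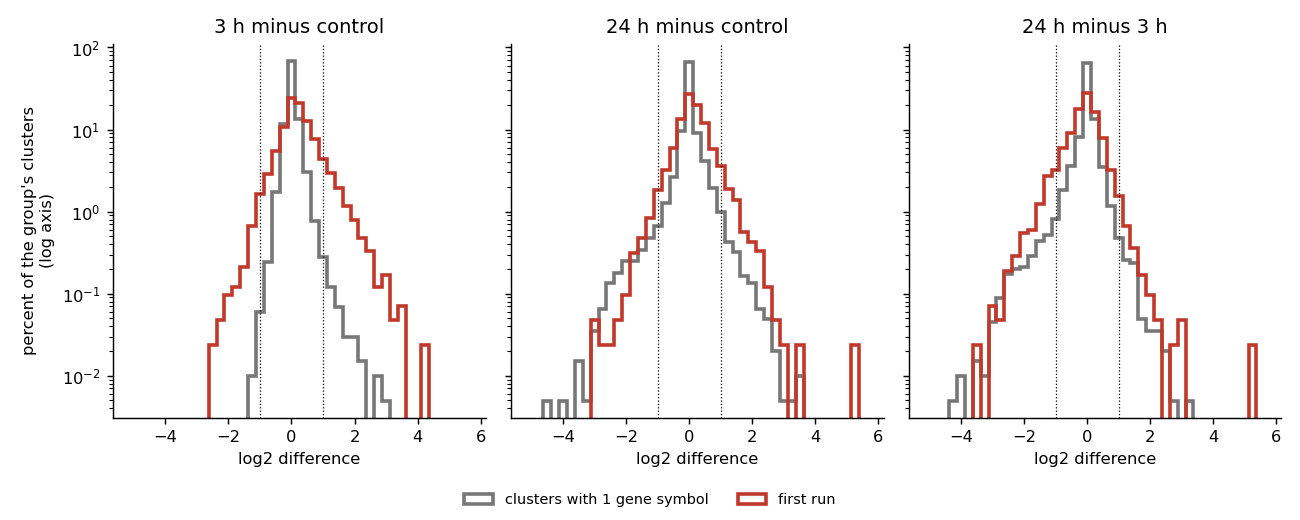
Percent of clusters (y axis, log scale) at each log2 difference (x axis, steps of 0.25) for 3 h minus control, 24 h minus control and 24 h minus 3 h, in the first run and in clusters with 1 gene symbol; dotted lines mark 2-fold. At 3 h the first run extends to 4.32 and -2.40 while the named genes stay between -1.33 and 3.05, and at 24 h the first run spans -3.04 to 5.36 and the named genes -4.59 to 3.51.

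The 2 undescribed clusters with the largest 3 h difference in each direction were all in the first run. They were chosen after their values were seen. Cluster 7895925 had log2 values of 1.22 in control cells, 5.54 after 3 h and 3.14 after 24 h, and cluster 7893617 had 2.98, 6.58 and 4.94. Both had their highest value on the 3 h array and stood between the other arrays at 24 h. Set against control cells, the 3 h values differed by 4.32 and by 3.60. Downward, cluster 7894150 had 3.62 in the control, 1.22 at 3 h and 1.37 at 24 h, and cluster 7895151 had 3.54, 1.37 and 2.47. Their 3 h differences were -2.40 and -2.17. In each of the 4, at least 1 of the compared values lay below the median level of 5.47. The control value of 7895925 and the 3 h values of 7894150 and 7895151 also lay below 1.82. This was the 5th percentile over all clusters on both arrays. No detection call or background level was used, so the sizes of these differences are uncertain.

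The share of clusters past 2-fold varied with their level. All clusters were divided into 4 classes of equal size by mean level. In the dimmest class, 15.3% of the 1365 clusters of the first run were higher at 3 h and 3.08% lower, and in the next class 18.1% and 2.65% of 830. In the third class the shares were 7.69% and 1.67% of 598, and in the brightest class 1.28% and 0.213% of 1408. The share that was higher reached 25.6% in the sixth bin of 20, at mean levels between 3.84 and 4.24, and was 0 of 753 in the brightest bin. For clusters with 1 symbol the order was opposite, with 0.0370% higher in the dimmest class and 0.576% in the brightest. At matched levels the groups still differed. Clusters with 1 symbol, weighted to the same 20 bins as the first run, gave 0.378% higher and 0.0628% lower. The spread of the 3 h differences in the first run fell from an SD of 0.76 in the dimmest class to 0.31 in the brightest, against 0.12 and 0.22 for clusters with 1 symbol.

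**Figure D3:**
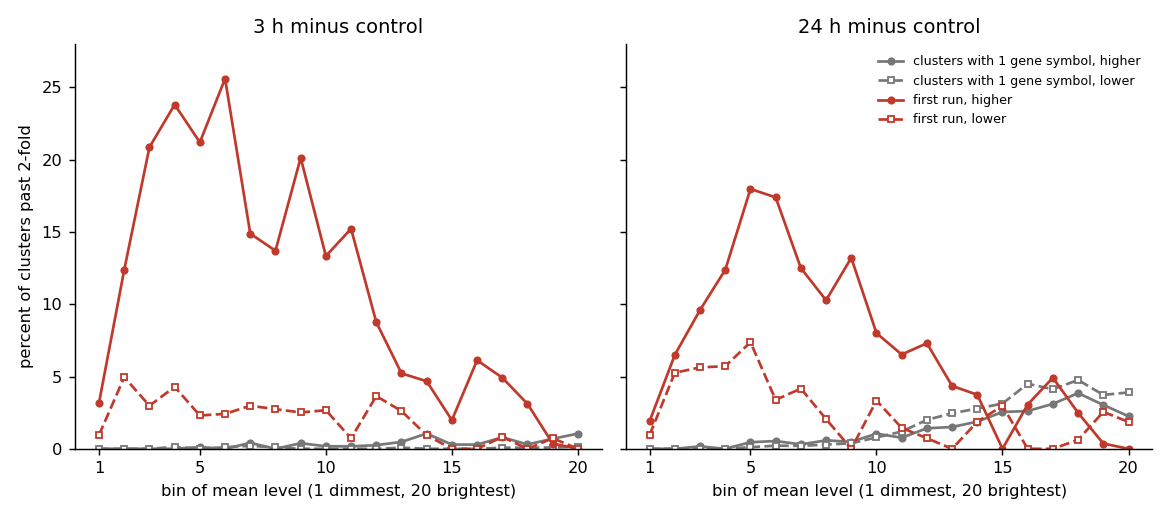
Percent of clusters at least 2-fold higher (filled circles, solid lines) or lower (open squares, dashed lines) than in control cells in each of 20 bins of the mean of the 3 arrays, for the first run and for clusters with 1 gene symbol, at 3 h and at 24 h. In the first run the share that is higher peaks at 25.6% at 3 h and 18.0% at 24 h among dim clusters and falls to 0 in the brightest bin, while the named genes reach 3.85% higher and 4.76% lower at 24 h, both in the 18th bin.

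At 3 h, clusters past 2-fold were found along the whole first run except in its last numbers. In 21 consecutive slices of 200 numbers, each with 197 to 200 clusters, between 13 and 28 clusters were higher and between 1 and 8 lower at 3 h. The median difference of a slice lay between 0.10 and 0.22 at 3 h, above 0 in each of the 21, and between 0.04 and 0.13 at 24 h. The control median of a slice lay between 4.48 and 6.07. The last 30 clusters, 7896701 to 7896730, had a control median of 3.75 and none of them was past 2-fold at 3 h. At 24 h, 2 of these 30 were higher and 1 was lower, and they included cluster 7896712, which had the largest increase of the whole array.

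After 24 h of BP the undescribed clusters were again more often higher than the named genes, but not the main part of the lower ones. Of the 4952 clusters, 271 were past 2-fold upward and 120 downward, or 5.47% and 2.42%. Over all clusters 1.99% were higher and 1.8% lower, and over clusters with 1 symbol 1.6% and 2.1%. The undescribed clusters were 41.0% of the 661 higher clusters and 120 of the 599 lower ones. The balance of the array depended on them, since 390 clusters were higher and 479 lower without them. It also depended on the scaling, as 628 clusters were higher and 628 lower when the arrays were aligned at the 75th percentile. Of the 100 largest increases at 24 h, 43 were in undescribed clusters and 55 in clusters with 1 symbol, and of the 100 largest decreases 8 and 78.

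The first run held 268 of the 271 higher and 117 of the 120 lower clusters at 24 h. Its median difference was 0.10, with the middle 95% between -1.04 and 1.43, and the difference was above 0 for 59.5% of its clusters. Weighted to the same levels, 1.27% of the clusters with 1 symbol were higher and 1.74% lower, against 6.38% and 2.79% of the first run. In the brightest class this order turned, with 0.994% higher and 1.56% lower in the first run and 3.05% and 4.25% among clusters with 1 symbol. The comparison at 24 h uses the same control array as that at 3 h, so a low or high control value of a cluster enters both.

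At 24 h the largest increase on the array was that of cluster 7896712 of the first run. It had 2.17 in the control, 2.35 at 3 h and 7.53 at 24 h, so that the 24 h array stood apart from the other 2. The difference from control cells was 5.36 at 24 h and 0.18 at 3 h. Its control value lay near the dim end of the array, where the 5th percentile over all clusters was 1.82, and no detection call or background level was used here, so the size of this difference is uncertain. Cluster 7893230 had 0.81, 1.22 and 4.19, with a 24 h difference of 3.39 from a control value below that percentile. The largest decreases among undescribed clusters were those of 7893615, with 4.11 in the control, 2.98 at 3 h and 1.07 at 24 h, and of 7892819, with 4.39, 4.58 and 1.48. Their 24 h differences were -3.04 and -2.91, and both 24 h values lay below the 5th percentile of the 24 h array, also 1.82. The first of these already differed by -1.13 at 3 h, while the second differed by 0.19 at that time.

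**Figure D4:**
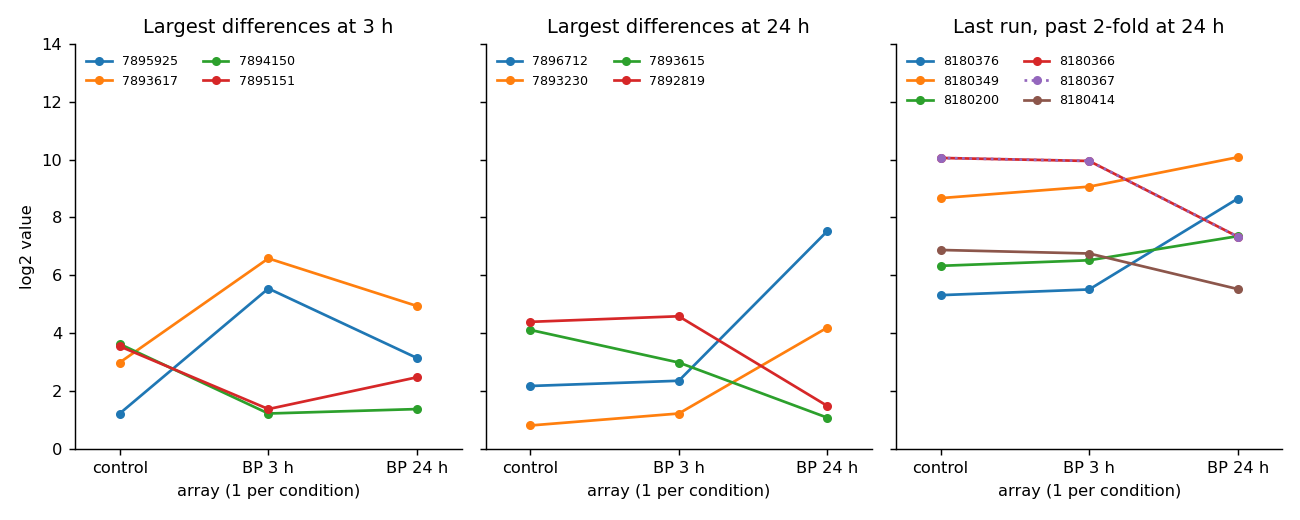
Log2 values (y axis) on the control, BP 3 h and BP 24 h arrays (x axis, 1 array each) of the 2 undescribed clusters with the largest difference in each direction at 3 h, the same at 24 h, and the 6 clusters of the last run past 2-fold at 24 h; each line is 1 cluster. Clusters 7895925 and 7893617 peak at 3 h, cluster 7896712 stays near 2.2 until 3 h and reaches 7.53 at 24 h, and clusters 8180366 and 8180367 lie on the same line.

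Between 3 h and 24 h more undescribed clusters were lower than higher past 2-fold at the later time. In this comparison, which does not use the control array, 93 were past 2-fold upward and 302 downward, or 1.88% and 6.10%. Its 3 h array is the one that was also compared with control cells. A high or low 3 h value of a cluster thus enters both comparisons. Over all clusters 0.94% were higher and 2.54% lower, and over clusters with 1 symbol 0.856% and 2.37%. The first run held 89 of the 93 higher and 295 of the 302 lower clusters, and its median difference was -0.04. Most of the lower ones were dim, with 181 in the dimmest of the 4 classes and 69 in the next. The 3 h array gave the highest of the 3 values, with no tie, in 43.7% of the first run, the 24 h array in 31.7% and the control array in 19.8%, and the control array gave the lowest in 48.0%. Of the clusters with 1 symbol, 17.0% had their highest value, with no tie, on the 3 h array, 17.8% on the 24 h array and 15.3% on the control array. Ties were much more common among them, as 37.5% had 3 distinct values against 91.8% of the first run. These shares are of all clusters, tied ones included, so they compare the arrays within a group and not 1 group with another. For the last run the 24 h array was most often the highest, in 29.1% of clusters, and for the scattered clusters the control array, in 12.4%.

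The deposited values often repeat exactly from array to array, and the first run had the fewest such repeats of the groups compared. Of its clusters, 3.45% repeated the control value at 3 h and 3.69% did so at 24 h, against 41.1% and 46.6% of the clusters with 1 symbol. Weighted to the levels of the first run, the latter gave 46.6% and 51.4%. All 3 arrays had the same value in 1.21% of the first run, 25.1% of the last run, 55.9% of the scattered clusters and 34.2% of the clusters with 1 symbol, and 91.8%, 48.9%, 17.6% and 37.5% had 3 distinct values. Of the clusters with a description and no symbol, 55.2% had 1 value on all arrays. Single values also recurred between different clusters, among them some named above. The value 1.21988 was that of 7895925 in the control and of both 7893230 and 7894150 at 3 h. The value 1.37334 was that of 7894150 at 24 h and of 7895151 at 3 h. How common this was over all clusters was not counted. The sources used here do not say how the repeated values arose. A cluster that repeats its value between both arrays of a comparison cannot be counted as higher or lower in that comparison. The shares past 2-fold given above include such clusters. At 3 h, 423 of the 2748 first-run clusters above 0 were past 2-fold upward, and 77 of the 1308 below 0 downward. For clusters with 1 symbol these counts were 74 of 6279 and 10 of 5542. At 24 h they were 268 of 2501 and 117 of 1545 in the first run. Clusters with 1 symbol had 321 of 5158 and 421 of 5571 at 24 h.

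**Figure D5:**
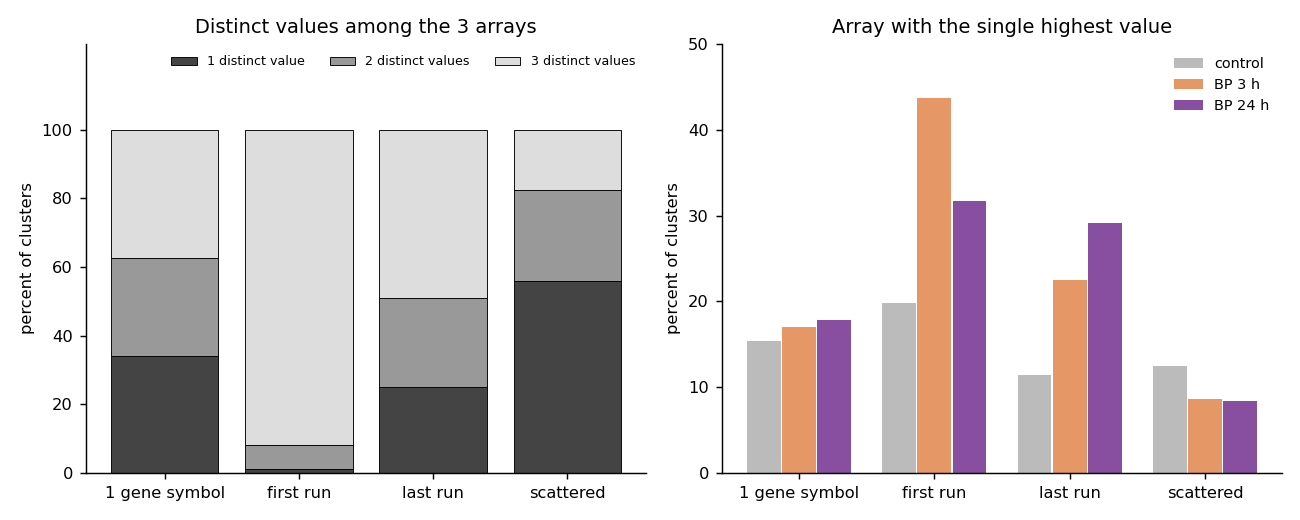
Left, percent of clusters (y axis) with 1, 2 or 3 distinct deposited values among the 3 arrays, for clusters with 1 gene symbol and the 3 sets without a description. Right, percent of clusters whose highest value, with no tie, was on the control, BP 3 h or BP 24 h array; in the first run 91.8% of clusters have 3 distinct values and the 3 h array is highest most often, in 43.7%.

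In the last run, 3 of the 227 clusters were past 2-fold in each direction at 24 h, or 1.32%. Over all clusters 1.99% were higher and 1.8% lower. Clusters with 1 symbol, weighted to the levels of the last run, gave 1.80% higher and 2.47% lower. With 3 clusters in each direction, the last run is not set apart from these shares. The 6 clusters are named here because of their small number and were seen before they were chosen. Cluster 8180376 had log2 values of 5.31, 5.51 and 8.65 on the control, 3 h and 24 h arrays, a 24 h difference of 3.34. Cluster 8180349 had 8.67, 9.07 and 10.08, a difference of 1.41, and cluster 8180200 had 6.33, 6.52 and 7.35, a difference of 1.03. All 3 were highest at 24 h, and their 3 h differences were 0.20, 0.40 and 0.19. Clusters 8180366 and 8180367 both had 10.06, 9.95 and 7.33, a 24 h difference of -2.72, and cluster 8180414 had 6.88, 6.75 and 5.52, a difference of -1.35.

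The profiles of these clusters were set against those of the named genes. The measure was the largest gap in log2 value on any of the 3 arrays, over all clusters with 1 symbol, and it was applied after the values had been seen. The closest to 8180366 and 8180367 was KLK3, the gene of prostate-specific antigen, with 10.16, 10.05 and 7.38 on the 3 arrays in that order. The gap was 0.10, and KLK3 was the 1 cluster with 1 symbol within 0.25. Cluster 8180414 lay closest to ST6GALNAC1, a sialyltransferase gene, with a gap of 0.01, but 13 clusters lay within 0.25 of it. Cluster 8180200 lay closest to CYLD, the gene of a deubiquitinase, with a gap of 0.02 and 21 clusters within 0.25. Cluster 8180349 lay closest to HSPA13, a gene of the HSP70 family, with a gap of 0.15. Cluster 8180376 had no cluster within 0.25, and the nearest was that of the thyroid hormone deiodinase DIO3 with a gap of 0.55. A likeness over 3 arrays does not name a cluster.

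Some clusters of the last run had the same 3 values as another cluster to the last digit. Leaving aside clusters with 1 value on all arrays, this held for 25 of 170 clusters of the last run, or 14.7%, against 1 of 4150 in the first run and 276 of 13216 with 1 symbol, or 2.09%. For 20 of the 25 the counterpart was another cluster of the last run, as for 8180366 and 8180367. For 4 it was a described cluster. Cluster 8180412 had the values of ST6GALNAC4, a sialyltransferase gene, which were 6.62, 6.56 and 6.69. Cluster 8180372 had those of ST6GALNAC2, another gene of this family, with 5.22, 5.18 and 5.18. Cluster 8180264 had those of LOC201229, with 4.01, 4.51 and 4.83, a 24 h difference of 0.82. The remaining counterpart, that of 8180240, carried 2 symbols and is not named. Clusters that share all their values cannot be counted as separate measurements, so counts over the last run include repeats.

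Few scattered clusters differed by 2-fold. At 3 h 0.191% were higher and 0.382% lower, against 1.6% and 0.336% over all clusters. Clusters with 1 symbol, weighted to the levels of the scattered ones, gave 0.114% and 0.0397% at 3 h. At 24 h they gave 0.447% higher and 0.469% lower, so few clusters at such levels were past 2-fold in either group. At 24 h none of the 524 was past 2-fold, and their differences lay between -0.93 and 0.96. The 3 that were past 2-fold at 3 h differed from control cells by -0.11, 0.01 and -0.44 at 24 h. Cluster 7997700 had 5.53, 6.53 and 5.41, which puts it just past 2-fold at 3 h. Cluster 8075057 had 4.18, 2.74 and 4.19, and cluster 8123101 had 5.87, 3.87 and 5.42, so that both were lowest on the 3 h array. The same 3 clusters were those past 2-fold between 3 h and 24 h. They were named after their values were seen.

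Of the 7 clusters with a symbol or accession, 3 were matched to a current RefSeq gene, and 0 were past 2-fold in any comparison. Over all clusters 1.6% were higher and 0.336% lower at 3 h, and 1.99% and 1.8% at 24 h. Between 3 h and 24 h these shares were 0.94% and 2.54%. With 7 clusters, a count of 0 does not set them apart from such shares. The largest difference among the 7 was that of RNU5D, in cytoband 1p34.1, which encodes a U5 small nuclear RNA of the spliceosome. It had 4.43 in the control, 4.47 at 3 h and 3.51 at 24 h, and thus differed by 0.04 and then by -0.92. NUDT4, the gene of a phosphatase of diphosphoinositol polyphosphates, had 3.80 on all 3 arrays, and NGRN, the neugrin gene in 15q26.1, had 4.32 on all 3. LOC645899 in 2q37.1 was the brightest, with 10.83, 11.00 and 11.05. The transcript tcag7.1056 had 6.46, 6.38 and 6.78, and cluster 8180385 of the last run had the same 3 values. LOC729135 in 1q21.1 had 7.37, 7.25 and 7.37, and LOC652692 had 1.99 on all 3 arrays. In RNA of whole cultures, a change in the RNA per cell and a change in the cells present cannot be told apart for any of these clusters.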

How the data were processed

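The authors measured total RNA of LNCaP cells on 3 arrays of the type Human Gene 1.0 ST. The deposited log2 values were used as they stand. RMA and Affymetrix Expression Console stand in the submitters' processing notes, with no version, while the study's methods section gives MAS5.0 followed by a per-chip normalization in GeneSpring. Which of these made the values is not settled by the sources, and the genome build is not stated in them. The annotation (other than numeric) came from the deposited table of control against 24 h. The 9 deposited tables of the authors' own comparisons also hold log2 ratios and folds, which were not used. Clusters were split into runs by cluster number alone. Levels were divided into 20 bins of the mean of the 3 arrays. No cluster was filtered out, and nothing was normalized further. The named clusters are the 2 with the largest rise, the 2 with the largest fall at 24 h and the 2 of highest mean level without annotation, and those outside this rule are marked. The set of clusters and the gene lists were chosen with earlier results of these data known. Symbols were matched to RefSeq genes of GRCh38.p14 for names only. Alternatives were other scalings of the arrays, thresholds of 1.5-fold and 3-fold, a filter on dim clusters and other definitions of the set. The counting was tested on simulated data with less noise than the spread of differences in the first run. That test checks the code and gives no rate of false counts in these data. Python 3.11.15, numpy 2.4.6, pandas 2.3.3 and matplotlib 3.10.9 were used.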

Additional observations from a re-analysis of the deposited data

Results flagged for a closer look

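Of the 4952 clusters, 4 lay past 2-fold above control cells after 3 h but past 2-fold below them after 24 h, all in the first run. Cluster 7895413 differed by 1.93 at 3 h and -1.46 at 24 h, cluster 7894869 by 1.68 and -1.23, cluster 7896232 by 1.15 and -1.04, and cluster 7895294 by 1.00 and -1.05. The count of 4 holds for the deposited values and depends on the scaling. Alignment of the arrays at the 75th percentile shifts every 3 h difference by -0.08, which leaves cluster 7895294 short of 2-fold at 3 h. Clusters 7895413 and 7894869 had 24 h values of 1.07 and 1.48, below the 5th percentile of 1.82 over all clusters. The same count was not made over the other clusters, so no background share can be set beside it. The difference between the 2 times was not tested, since each time had 1 array.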

How the results depend on the processing

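With each array centred on its median or its 75th percentile, or after quantile normalization, the 6 counts stayed within 1.5 times. Several median differences did not. At 3 h and 24 h they were 0.102 and 0.0382 as deposited, 0.0208 and 0.0124 with the 75th percentile, 0.0363 and 0.0141 after quantile normalization, 0.159 and 0.0959 in the first run, and 0 and 0 outside it. Above the median level the 24 h median was 0.0634. Centring on the array medians kept both within 1.5 times. The counts are given as higher and lower, for 3 h, for 24 h and for 24 h against 3 h. At 1.5-fold they were 934 and 268, 676 and 337, and 300 and 684. All 33297 clusters gave 1413 and 462, 1822 and 1292, and 989 and 1874 at this threshold. At 3-fold the counts of undescribed clusters were 144 and 14, 71 and 29, and 20 and 82. All clusters gave 173 and 17, 185 and 249, and 63 and 326 at 3-fold. Over the 2232 members above the median level the 2-fold counts were 65 and 13, 45 and 33, and 9 and 52. Over the 751 members outside the first run, a setting chosen after seeing the data, they were 1 and 2, 3 and 3, and 4 and 7. The share with exactly the control value at 3 h and 24 h was 11.2% and 12.1% over all undescribed clusters, 12.8% and 13.9% counting values within 0.01, 2.82% and 4.57% above the median level, 3.45% and 3.69% in the first run and 54.3% and 59.0% outside it. No paired analysis was possible because each condition had 1 array. The number of arrays limits all values, and most of the counted differences are of dim clusters.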
